A study of Zea mays with 6 samples.

Results

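GRMZM2G088309 and GRMZM2G102218 are the maize genes whose *Arabidopsis* match in the deposited table is *CRABS CLAW* (*CRC*), a transcription factor gene of the YABBY family. They were chosen by their gene identifiers, and they are 2 of the 25368 rows of the table. RNA was sequenced from ovaries with incompletely fused carpels (IFC; 3 libraries) and from wild-type (WT; 3 libraries) ovaries, all taken before pollination from field-grown plants of the inbred line Yu-A474 without stress treatment. The labels call the IFC genotype a mutant, yet each set of IFC and WT ovaries came from neighbouring positions on the same ear. Both phenotypes thus came from the same Yu-A474 plants under the same growth conditions. The comparison is between ovary phenotypes, not between plants of different genotype. Not every ovary of such an ear shows the open carpels, and the phenotype was told apart by eye. The deposited values are FPKM (read pairs per transcript, scaled for transcript length and library depth), which the authors computed once per phenotype after pooling the libraries. Each gene therefore has 1 FPKM value for IFC and 1 for WT, which show no spread between libraries. The authors' own test results and values per library were not used. Every difference given here is a ratio of the 2 pooled values without a test or a replicate check. The number of reads behind each value is not known from the table.

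YABBY proteins carry a zinc finger and a helical YABBY domain and bind DNA. In *Arabidopsis*, most of the family is active on the lower, abaxial side of leaves and floral organs, while *CRC* acts in carpels and nectaries, where it promotes the growth and fusion of the carpels and helps to end the floral meristem. In rice the gene of this kind is *DROOPING LEAF*, which specifies carpels and forms the leaf midrib. The maize ovary is itself formed by the fusion of carpels.

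GRMZM2G088309 lies on chromosome 1, at chr1:26576545-26581707 on the plus strand of B73 RefGen_v3. The table describes it as a DROOPING LEAF protein, and RefSeq lists DL1 among its names. GRMZM2G102218 lies on chromosome 9, at chr9:146951298-146956590 on the minus strand, and is described as a putative YABBY domain factor. The spans are close in length, 5163 and 5293 bp, and the authors' transcript models give the chromosome 1 copy 1 start site and the chromosome 9 copy 3. Each has a single row.

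Both *CRC* matches were well expressed in the ovary and both had lower FPKM in IFC. GRMZM2G088309 had 119 FPKM in IFC ovaries and 164 FPKM in WT ovaries, which is 1.38-fold lower in IFC (log2 ratio -0.46). GRMZM2G102218 had 47.5 FPKM in IFC and 70.9 FPKM in WT, 1.49-fold lower (log2 ratio -0.58). The log2 ratio of the chromosome 9 copy was 0.12 below that of the chromosome 1 copy (-0.12), a gap that cannot be set against any spread. Added together, the copies gave 166 FPKM in IFC and 235 FPKM in WT, 1.41-fold lower. Neither copy was lower by more than 1.5-fold. The study uses that fold together with a p-value limit, which was not applied here, and an FPKM above 2. Of the 21093 rows with such an FPKM in IFC or WT, 2.55% were lower in IFC by more than 1.5-fold and 4.13% were higher, and of the 1091 such rows of transcription factors (TFs) 4.12% were lower and 6.32% were higher. Since ovaries are whole organs, fewer cells with this RNA and less of it per cell cannot be told apart.

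The directions were the same under 3 of 4 other scalings. A single row, GRMZM2G070931, was listed at 0 in IFC and held 55.6% of the summed FPKM of WT. When IFC and WT were given equal total FPKM, every log2 ratio moved up by 1.13, so that 20987 of the 21093 rows became higher in IFC, and the copies had log2 ratios of 0.67 (chromosome 1) and 0.55 (chromosome 9). That shift is set by this row and is the same for every gene. With equal totals taken without that row, the log2 ratios were -0.51 for chromosome 1 and -0.62 for chromosome 9. With the median log2 ratio of all rows set to 0 they were -0.44 and -0.56, and with equal upper quartiles -0.44 and -0.56.

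**Figure D1:**
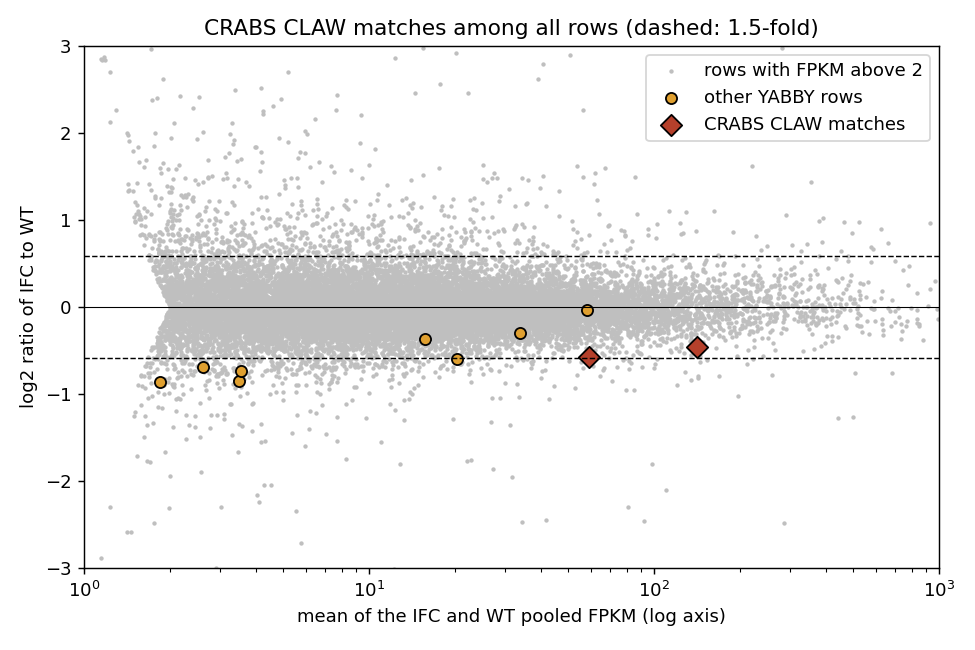
The log2 ratio of IFC to WT (vertical) against the mean of the 2 pooled FPKM values (horizontal, log axis) for rows with an FPKM above 2, with the 1.5-fold lines dashed; 73 rows fall outside the axes and 10 rows at 0 in a phenotype are not drawn. The *CRC* matches (diamonds) sit at -0.46 and -0.58, near the lower edge of rows of their level, and all other YABBY rows (circles) lie below 0 on the authors' scaling and 3 others, and above it only with equal total FPKM in IFC and WT, a shift common to all rows.

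Few rows of high level lay as low. A log2 ratio at or below that of GRMZM2G088309 was found for 4.82% of the 21093 rows with an FPKM above 2, and for 2.54% of the 11782 rows with at least 10 FPKM in both phenotypes. For GRMZM2G102218 the share was 2.63% of the 21093 rows, and 130 of the 11782 rows were as low. Among the 1091 TF rows, 84 were as low as the chromosome 1 copy and 47 as low as the chromosome 9 copy.

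The chromosome 1 copy was the more abundant in both phenotypes. Its FPKM, which is corrected for length, was 2.50 times that of the chromosome 9 copy in IFC and 2.31 times in WT. It made up 71.5% of the summed FPKM of the pair in IFC and 69.8% in WT, so the share of each copy was nearly the same in both phenotypes. Reads that fit both copies would have been divided between them by the authors' correction for multi-mapped reads, and how many there were is not known.

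GRMZM2G088309 was among the highest TF rows of the ovary. It ranked 33 of 1341 TF rows by FPKM in IFC and 20 in WT, and 889 of all 25368 rows in IFC and 596 in WT, which is within the top 3.50% and 2.35%. Its FPKM was 9.36 times the median of rows above 2 FPKM in IFC and 12.7 times in WT. GRMZM2G102218 ranked 108 of the TF rows in IFC and 68 in WT, and 2875 of all rows in IFC and 1755 in WT (the top 11.3% and 6.92%). Both copies thus stood lower in the order of genes in IFC, a measure that does not depend on the scaling.

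The *CRC* matches were the 2 most abundant YABBY rows in WT, and the first and the third in IFC. The family has 10 rows, found by the TF family or by a YABBY gene as the *Arabidopsis* match, and RefSeq lists all 10 gene identifiers. The pair gave 56.9% of the summed YABBY FPKM in IFC (293 FPKM) and 60.6% in WT (387 FPKM). The match of *YAB5*, GRMZM2G116646, had 57.7 FPKM in IFC and 58.8 FPKM in WT, so it stood above the chromosome 9 copy in IFC and below it in WT. Whether these neighbours in the order differ beyond the spread of libraries cannot be told from single pooled values.

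All 10 YABBY rows were lower in IFC on the authors' scaling and under the 3 scalings that GRMZM2G070931 does not set, and all 10, like nearly all rows, were higher with equal total FPKM in IFC and WT. The median log2 ratio was -0.59, against -0.02 for all rows with an FPKM above 2 and -0.06 for TF rows. With the median of all rows set to 0, the YABBY median was -0.57. Of all rows, 54.1% were lower in IFC, and of TF rows 59.7%. Without the *CRC* matches, the other 8 rows had a median of -0.64, and their summed FPKM was 126 in IFC and 153 in WT, 1.21-fold lower.

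Of the YABBY rows, 5 were lower by more than 1.5-fold, and none of these was a *CRC* match. Of all rows with an FPKM above 2, 2.55% were lower by that much, and of such TF rows 4.12%. These counts use the fold alone, without the p-value limit of the study. The row just inside that fold was GRMZM2G529859, a match of *FILAMENTOUS FLOWER* (*FIL*), which promotes abaxial fate in *Arabidopsis*, with 16.2 FPKM in IFC and 24.6 FPKM in WT (1.52-fold lower). With the median of all rows set to 0 it was no longer past the fold, which left 4 rows. Just outside it was the chromosome 9 *CRC* match at 1.49-fold. The other 4 rows past the fold had low FPKM. GRMZM2G046829, a match of *INNER NO OUTER*, which is needed for the outer integument of the *Arabidopsis* ovule, had 2.50 FPKM in IFC and 4.51 FPKM in WT (1.80-fold lower). Yabby10 (GRMZM2G167824) had 1.31 FPKM in IFC and 2.37 FPKM in WT, Yabby9 (GRMZM2G074543) had 2.00 FPKM in IFC and 3.22 FPKM in WT, and GRMZM2G074124 had 2.67 FPKM in IFC and 4.44 FPKM in WT. At such levels a small difference in FPKM gives a large fold.
The remaining rows lay closer to WT. A second well-expressed *FIL* match, GRMZM2G141955, had 30.3 FPKM in IFC and 37.2 FPKM in WT (1.23-fold lower), and the *YAB2* match GRMZM2G106204 had 13.7 FPKM in IFC and 17.6 FPKM in WT (1.29-fold lower). The *YAB5* match was lower by 1.02-fold only. Among YABBY rows above 10 FPKM in both phenotypes, the *CRC* matches and the *FIL* match GRMZM2G529859 therefore had the lowest ratios.

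**Figure D2:**
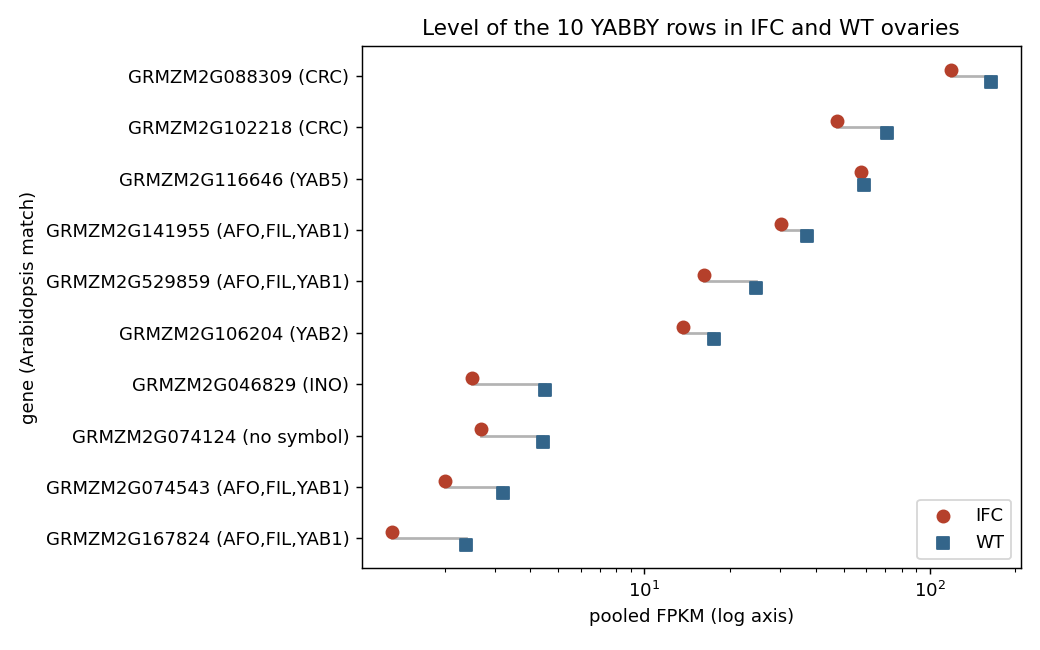
Pooled FPKM (horizontal, log axis) of the 10 YABBY rows in IFC (circles) and WT (squares), 1 row per gene with its *Arabidopsis* match in brackets. The *CRC* matches, at 119 and 47.5 FPKM in IFC and 164 and 70.9 FPKM in WT, lead the order in WT, and each IFC point lies left of its WT point on the authors' scaling and 3 others, and right of it only with equal total FPKM in IFC and WT, a shift common to all rows.

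The rows around the copies matched each other in part. Within 250 kb on each side there were 9 other rows at the chromosome 1 copy and 12 at the chromosome 9 copy. Reading along the strand of each copy, both had upstream a match of *RPA70B*, a subunit of the replication protein that binds single-stranded DNA, then a match of the nucleotide sugar transporter *GONST3*, and downstream a MADS-box gene of the *SEPALLATA* (*SEP*) class. *SEP* genes act together with the other floral MADS-box genes to specify the organs of the flower. On chromosome 9 the MADS-box gene is the next row, MADS8 (GRMZM2G102161, chr9:146936986-146945281), 6.02 kb from the *CRC* match. On chromosome 1 it is GRMZM2G099522 (chr1:26671504-26681217), also the next row, at 89.8 kb. Maize descends from an ancestor with a doubled genome, and many of its genes have a second copy in a related segment.
MADS8 had 195 FPKM in IFC and 288 FPKM in WT, 1.48-fold lower, a log2 ratio of -0.56 beside the -0.58 of the *CRC* match next to it. It was the lowest ratio of the 17 rows of carpel and ovule MADS-box factors. GRMZM2G099522 had 237 FPKM in IFC and 283 FPKM in WT (log2 ratio -0.26), beside the -0.46 of the chromosome 1 copy. At both places the downstream MADS-box gene was thus higher in FPKM than the *CRC* match, and its ratio was lower on chromosome 9 than on chromosome 1, as for the *CRC* matches.
The other rows nearby were lower in some cases and higher in others. The *RPA70B* matches were higher in IFC, with 21.8 FPKM in IFC and 17.7 FPKM in WT beside the chromosome 1 copy, and 40.8 FPKM in IFC and 24.4 FPKM in WT beside the chromosome 9 copy. The *GONST3* matches, which are the next rows upstream of the copies, had log2 ratios of 0.27 (GRMZM2G173067, chromosome 1) and -0.13 (GRMZM2G013349, chromosome 9). In all, 5 of the 9 rows near the chromosome 1 copy and 5 of the 12 near the chromosome 9 copy were lower in IFC. The share over all rows with an FPKM above 2 was 54.1%. The median log2 ratios of the rows in each window were -0.07 (chromosome 1) and 0.0027 (chromosome 9), and none of them was as low as the *CRC* match of its own window.

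**Figure D3:**
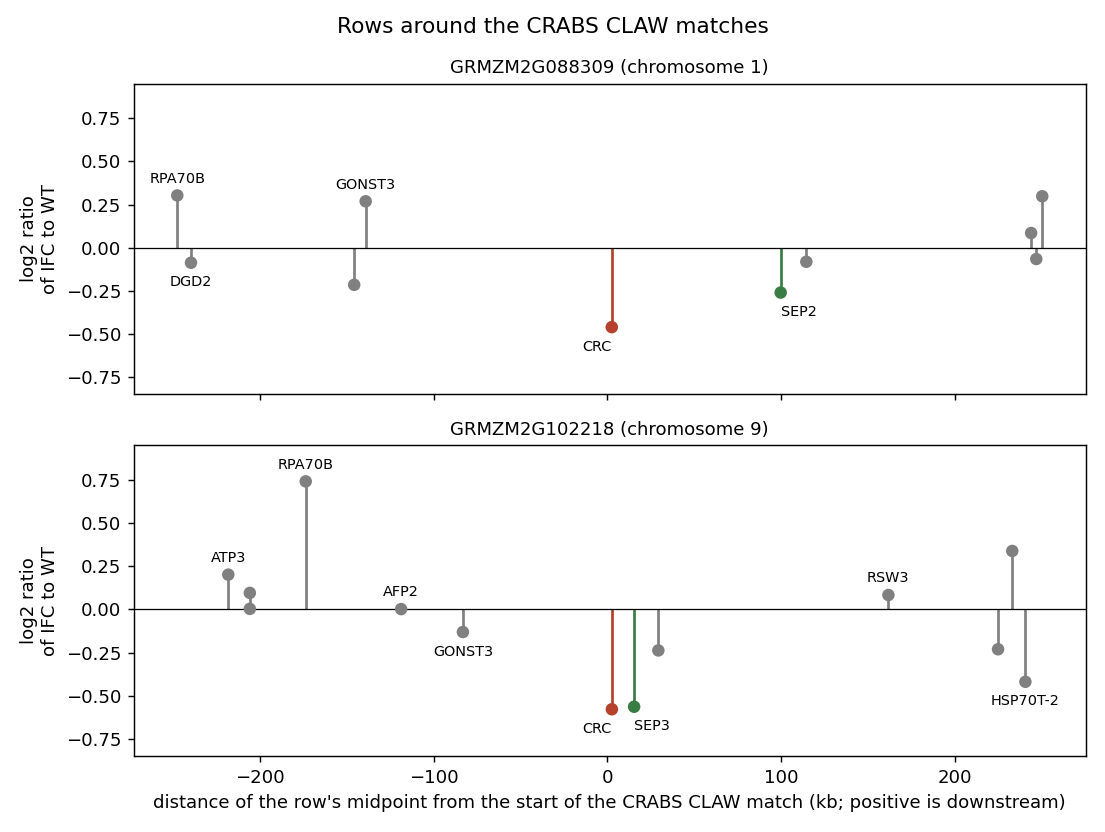
The log2 ratio of IFC to WT (vertical) of each row within 250 kb of the *CRC* matches, placed by the distance of its midpoint from the start of the match in kb (horizontal, positive downstream), with labels for rows that have an *Arabidopsis* symbol. The *CRC* matches (-0.46 on chromosome 1 and -0.58 on chromosome 9, red) and the *SEP*-class genes next to them (-0.26 and -0.56, green) point down at both places on the authors' scaling, and up with equal total FPKM in IFC and WT, a shift common to all rows.

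Most rows of the MADS-box, co-repressor, margin and style, and determinacy lists had log2 ratios above those of the *CRC* matches. So did most of the 21093 rows with an FPKM above 2. The lists were matched by *Arabidopsis* symbol, and whether their maize genes act with *CRC* matches was not tested. Ratios as low as that of GRMZM2G088309 were found for 1 of 17 MADS-box rows, 0 of 17 co-repressor rows, 4 of 15 margin and style rows and 2 of 13 determinacy rows, against 4.82% of all rows. All counts that follow are on the authors' scaling. With equal total FPKM in IFC and WT, every row of these lists with an FPKM above 2 was higher in IFC, as were 20987 of all 21093 rows. With the median of all rows set to 0, 14 MADS-box rows, 10 margin and style rows, 12 co-repressor rows and 10 determinacy rows were lower. Of all rows 54.1% were lower and 2.55% past 1.5-fold, and of TF rows 59.7% and 4.12%. Of 17 rows of carpel and ovule MADS-box factors, which include the *AGAMOUS* genes that turn on carpel identity, 16 were lower in IFC and 0 were past 1.5-fold (median log2 ratio -0.12). The highest was a *SEP3* match, GRMZM2G159397, at 695 FPKM in IFC and 754 FPKM in WT, and the 4 *AGAMOUS* matches were lower by 1.01 to 1.33-fold. GRMZM2G359952 had 183 FPKM in IFC and 197 FPKM in WT, ZAG1 (GRMZM2G052890) had 142 FPKM in IFC and 143 FPKM in WT, GRMZM2G018589 had 43.2 FPKM in IFC and 54.8 FPKM in WT, and GRMZM2G471089 had 31.1 FPKM in IFC and 41.3 FPKM in WT.
YABBY proteins repress genes together with the co-repressors LEUNIG, SEUSS and TOPLESS in *Arabidopsis*. Of 17 rows of these co-repressors, 13 were lower, 4 were higher and 0 were past 1.5-fold, with a median log2 ratio of -0.07. The highest was the *TOPLESS* match Ramosa1 enhancer locus 2 (GRMZM2G042992), with 87.4 FPKM in IFC and 80.9 FPKM in WT.
Of 15 carpel margin and style factors with an FPKM above 2, 12 were lower and 2 were past 1.5-fold (median -0.06). These were a match of *SHI*, a gene of style and leaf growth (GRMZM2G108798, 10.3 FPKM in IFC and 16.1 FPKM in WT), and a match of the style gene *NGA3* (AC216872.3_FG002, 2.03 FPKM in IFC and 3.15 FPKM in WT). The highest of the list, the *RPL* match GRMZM2G125976, had 27.4 FPKM in IFC and 30.8 FPKM in WT. The bHLH gene *SPATULA*, which acts with *CRC* in *Arabidopsis* carpel fusion, has a match, GRMZM2G030744, with 8.91 FPKM in IFC and 9.10 FPKM in WT. It is named for that role after its value was seen, as are the *AGAMOUS* matches above.
Of 13 genes of floral meristem determinacy, 10 were lower, with 2 past 1.5-fold lower and 1 past it higher (median -0.13). Glossy15 (GRMZM2G160730), a match of *APETALA2*, had 1.21 FPKM in IFC and 2.22 FPKM in WT, the *KNAT1* match GRMZM2G061101 had 2.12 FPKM in IFC and 3.48 FPKM in WT, and the *SQUINT* match GRMZM2G329306 had 11.9 FPKM in IFC and 7.76 FPKM in WT. The highest row of this list, GRMZM2G135283, shares the symbol STM but is described as a serine hydroxymethyltransferase.

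Of the lists examined, those of organ polarity had the medians nearest to that of the YABBY family. Among whole TF families, SRS (-0.48, 6 of 7 rows lower) had a median nearer still. Dof (-0.37, 26 of 29 rows lower) was nearer than the polarity lists as matched. It was not nearer than the abaxial list without the ADP-ribosylation factor row named below (-0.40). Of 9 abaxial fate rows with an FPKM above 2, 8 were lower and 3 were past 1.5-fold (median -0.31), beside 54.1% and 2.55% of all rows, namely the *KANADI* matches GRMZM2G056400 (4.996 FPKM in IFC and 8.01 FPKM in WT) and GRMZM2G175827 (3.09 FPKM in IFC and 4.77 FPKM in WT) and the *ETTIN* match GRMZM2G437460 (8.12 FPKM in IFC and 12.8 FPKM in WT). The highest row of this list, GRMZM2G147726, is an ADP-ribosylation factor that shares the symbol ARF3, and without it the median was -0.40. Of 11 adaxial fate rows, which act on the opposite side of the organ, 11 were lower and 0 were past 1.5-fold (median -0.29). The highest was rough sheath 2 (GRMZM2G403620), with 65.0 FPKM in IFC and 81.6 FPKM in WT. None of the adaxial rows was as low as either *CRC* match, and 4 of the 9 abaxial rows were as low as GRMZM2G088309, beside 4.82% of all rows.

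**Figure D4:**
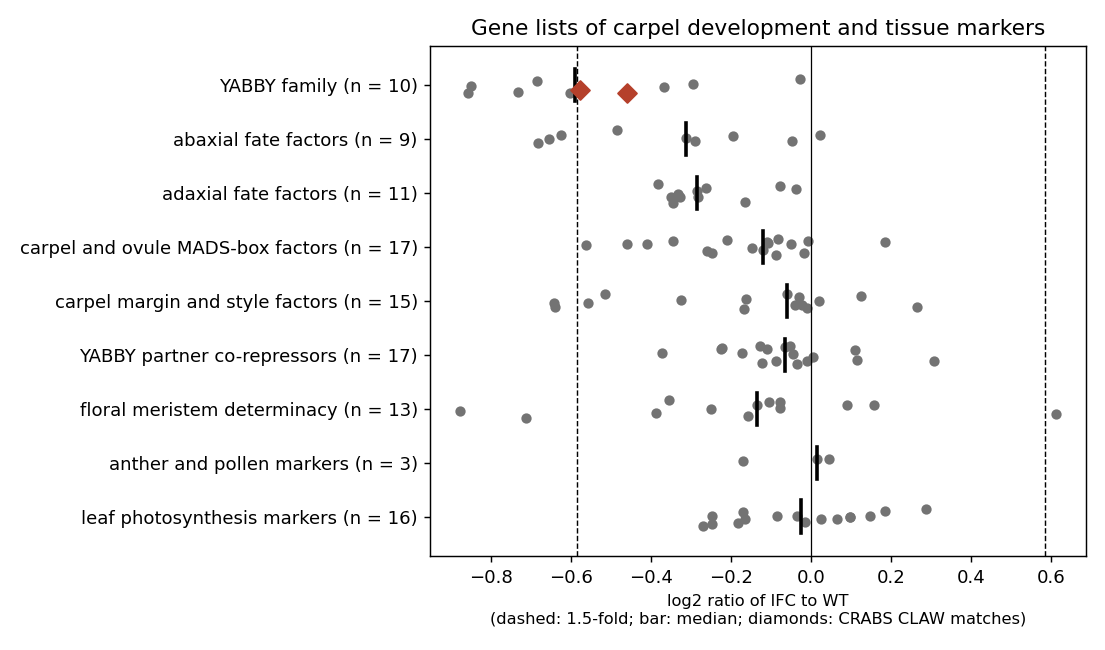
The log2 ratio of IFC to WT (horizontal) for each row with an FPKM above 2 of the 9 gene lists, with the median of each list as a bar, the *CRC* matches as diamonds and the 1.5-fold lines dashed. The YABBY median (-0.59) lies left of those of the abaxial (-0.31) and adaxial (-0.29) lists on the authors' scaling, and every point would lie right of 0 with equal total FPKM in IFC and WT.

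Carpel and ovule MADS-box factors had a summed FPKM of 3444 in IFC and 3783 in WT, much of it from *SEP* and *AGL6* matches that are not particular to carpels. The matches of *SHATTERPROOF2*, which is active in *Arabidopsis* carpels and ovules, were high in both, with 512 FPKM in IFC and 543 FPKM in WT for GRMZM2G010669 and 429 FPKM in IFC and 444 FPKM in WT for GRMZM2G160687. Not all rows of the list were high. Its lowest row, the *STK* match GRMZM2G001139, had 4.71 FPKM in IFC and 5.45 FPKM in WT. Of 5 anther and pollen rows 3 had an FPKM above 2, with *MS2* (GRMZM2G120987) at 3.71 FPKM in IFC and 3.59 FPKM in WT and *AMS* (GRMZM2G139372) at 0.452 FPKM in IFC and 0.119 FPKM in WT. The sum of that list, 22.8 in IFC and 23.8 in WT, came mostly from 2 rows matched by the symbol DRL1. The higher was GRMZM2G019200 (11.9 FPKM in IFC and 13.3 FPKM in WT), which is described as a calmodulin-binding protein. The DRL1 rows were 2 of the 3 above 2 FPKM, and the symbol alone does not show that they are anther genes. Leaf photosynthesis markers had a summed FPKM of 568 in IFC and 603 in WT, with 9 of 16 rows lower and a median log2 ratio of -0.03. The highest was a chlorophyll a-b binding protein (AC207722.2_FG009), at 183 FPKM in IFC and 217 FPKM in WT. Outside these lists, GRMZM2G152862, a match of the petal and stamen gene *PISTILLATA*, had 117 FPKM in IFC and 134 FPKM in WT. The part of anther, other floral and leaf RNA in the differences of the *CRC* matches was not tested.

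The TF genes most like each copy in level were found by distance in log2 of FPKM + 1 over the 2 phenotypes, among 965 TF rows with an *Arabidopsis* symbol. With only 2 values a gene, this measures a shared level and ratio. For GRMZM2G088309 they were the zinc finger homeodomain gene GRMZM2G089619 (match HB22), with 109 FPKM in IFC and 160 FPKM in WT, the NF-YC gene GRMZM2G078691, with 131 FPKM in IFC and 152 FPKM in WT, and GRMZM2G152862, a match of the petal and stamen gene *PISTILLATA*, with 117 FPKM in IFC and 134 FPKM in WT. The distances were 0.13, 0.18 and 0.29. For GRMZM2G102218 they were a GATA factor (GRMZM2G054615, 55.4 FPKM in IFC and 68.2 FPKM in WT), the *BEH4* match GRMZM5G812774 (50.4 FPKM in IFC and 60.5 FPKM in WT) and the *STOP1* match GRMZM2G129428 (53.8 FPKM in IFC and 62.2 FPKM in WT), at distances of 0.22, 0.24 and 0.26. Of these 6 genes, GRMZM2G089619 alone had a log2 ratio (-0.55) below that of GRMZM2G088309.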

How the data were processed

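The authors removed ribosomal RNA, sequenced strand-specific paired-end libraries, trimmed reads with Trimmomatic, aligned them to B73 RefGen_v3 with TopHat2 and kept exonic reads with BEDTools. FPKM was computed by the authors with Cufflinks and Cuffdiff on the pooled reads of the 3 libraries of each phenotype, with quartile normalization, a correction for fragment bias and a weighting of reads that map to several places. The deposited columns of fold change, p-value, q-value and call hold the authors' own comparison and were not used. Values per library were not used here.

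Ratios, log2 ratios, ranks and medians were computed from the pooled FPKM without a pseudocount, or with 1 for distances. The minimum of 2 FPKM in IFC or WT and the 1.5-fold limit follow the study, whose p-value limit was not applied. List members were matched by exact *Arabidopsis* symbol. The genes and lists were chosen with earlier results of these data known. Named genes were the YABBY rows, the highest row of each list and up to 3 further rows past 1.5-fold, the 3 nearest TF rows and the next rows on the chromosome. SPATULA, AGAMOUS, SHATTERPROOF2, STK, MS2, AMS and the RPA70B matches were named after their values were seen. RefSeq names come from Zm-B73-REFERENCE-NAM-5.0, whose coordinates were not used. The counting functions were tested on simulated data. Python 3.11.15, numpy 2.4.6, pandas 2.3.3 and matplotlib 3.10.9 were used.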

Additional observations from a re-analysis of the deposited data

How the results depend on the processing

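No paired analysis was possible because the values analysed here are 1 pooled FPKM per phenotype, and no library was left out. Values per library were not used. Equal total FPKM in IFC and WT turned the log2 ratios to 0.67 for GRMZM2G088309, 0.55 for GRMZM2G102218, 0.63 for the summed pair and 0.54 for the median of the YABBY rows, and left 0 YABBY rows lower by more than 1.5-fold. Without the row of GRMZM2G070931, this scaling gave -0.51, -0.62, -0.54 and -0.64, with 6 YABBY rows, the chromosome 9 *CRC* match now among them. Median centring, upper-quartile centring and the TF family column alone each gave 4 YABBY rows, GRMZM2G529859 dropping out under centring, and at a fold of 2 there were 0. Among TF rows only, GRMZM2G088309 ranked 33 in IFC and 20 in WT, and GRMZM2G102218 ranked 108 in IFC and 68 in WT. Pseudocounts of 0.1 and 1, centring on the median or upper quartile, summed rows and the TF family column alone kept the signs of the *CRC* matches, their sum and the YABBY median where each was run. Median centring changed the number of lower rows to 14 for the MADS-box list, 10 for margin and style, 12 for co-repressors and 8 for leaf markers.
The medians of the abaxial and determinacy lists without the rows of unrelated proteins (-0.40 and -0.15) were an alternative chosen after seeing the data.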
